A study of Nannochloropsis oceanica with 44 samples.

Results

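Transcript levels of the marine alga Nannochloropsis oceanica were compared between 48 h and 24 h of nitrogen deprivation, the interval in the middle of a starvation course of 72 h. All 2489 genes of the 4 deposited cluster tables entered the comparison, which is every gene of the series analysed here. The series lists 44 RNA-seq libraries in 11 groups of 4, and the compared groups, 48 h N- and 24 h N-, hold 8 of them. Every group is the wild-type strain CCMP1779 in liquid culture under continuous light. The N- cells were washed and placed in medium without nitrogen (N-) at 0 h, and cells after resupply (NR) had first spent 72 h without nitrogen and were then moved to medium with nitrogen. The tables give 1 log2-scale value per gene and time point, so the 4 libraries of a group (marked A or B and 1 or 2, from 2 biological replicates according to the labels) cannot be seen apart, their depth is unknown here, and no difference below has an error or a p-value. A gene is counted as higher or lower where 48 h N- minus 24 h N- is beyond 1 on the log2 scale, which is 2-fold.

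Nannochloropsis stops dividing when nitrogen runs out. It draws down nitrogen-rich cell components such as pigments and the photosynthetic apparatus, and it turns carbon into triacylglycerol, the storage oil for which the genus is grown. Once nitrogen returns, the cells rebuild this apparatus, use up the oil and resume growth. The tables carry gene model identifiers without names or functions, and a lookup in a reference table of 160 genes matched 0 of the 2489, so the genes are described by their profiles, their clusters and their contigs, and the identity of the culture was not checked against marker genes.

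The step from 24 h to 48 h was a lowering almost without a counterpart. At 48 h N- 517 genes (20.8%) were more than 2-fold below their 24 h N- level and 2 genes (0.0804%) were more than 2-fold above it. In bulk RNA, a smaller share of the cells using a gene and less of its transcript per cell cannot be told apart. The median difference over all genes was -0.31 (quartiles over genes -0.90 and 0.08), and 1721 genes lay below 0 against 768 above it. Most differences were small: 1385 genes (55.6%) differed by less than 0.5 in either direction. Only 12 genes were lower by more than 4-fold and 2 by more than 8-fold. The 2-fold limit falls in a dense part of the distribution, with 94 genes lower by 1.0 to 1.1 and 102 lower by 0.9 to 1.0, so the count is set partly by where the limit stands.

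How much of this was lowering depends on the scale. The median level of the genes was 9.00 at 48 h N- and 9.46 at 24 h N-, a shift of -0.46. Relative to that shift 168 genes (6.75%) were lower by more than 2-fold and 38 (1.53%) were higher. The genes in the tables were selected for a difference between deprivation and resupply, so their median is no neutral baseline, and neither scale is known to be right. A comparison of clusters with each other does not depend on the shift and is given below for that reason.

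The lower genes lay almost wholly in clusters 3 and 4, the clusters that the authors formed from the shape of the profiles over the 10 time points, this step included. These clusters hold 1290 genes, and 515 of the 517 lower genes (99.6%) belonged to them. Cluster 4 had 215 lower genes among its 418 (51.4%), 0 higher genes and a median difference of -1.02, with quartiles at -1.39 and -0.68. Cluster 3 had 300 among 872 (34.4%), again 0 higher genes, and its median of -0.80 lay between quartiles of -1.14 and -0.53. Cluster 4 had 10 genes with any difference above 0 and cluster 3 had 27, the largest being 0.47 in cluster 4 and 0.60 in cluster 3.

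Clusters 1 and 2 hardly moved on the deposited scale. The 798 genes of cluster 1 included 1 higher and 0 lower gene, around a median of 0.11 with quartiles at -0.05 and 0.24. The 401 genes of cluster 2 included 1 higher and 2 lower genes, around a median of 0.01 with quartiles at -0.18 and 0.19. The spread over genes was also narrow there, with an SD of 0.22 in cluster 1 and 0.32 in cluster 2, beside 0.47 in cluster 3 and 0.48 in cluster 4. After centring on the column medians, 19 genes of cluster 1 and 17 of cluster 2 were higher, 0 and 2 were lower, and 85 genes of cluster 3 and 81 of cluster 4 were lower while 2 and 0 were higher. The medians then became 0.58, 0.47, -0.34 and -0.55 for clusters 1 to 4. Whatever the shift, cluster 4 dropped by 1.13 relative to cluster 1 in the medians, which is 2.19-fold, cluster 3 dropped by 0.92 relative to cluster 1, and clusters 1 and 2 parted by 0.11.

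**Figure D1:**
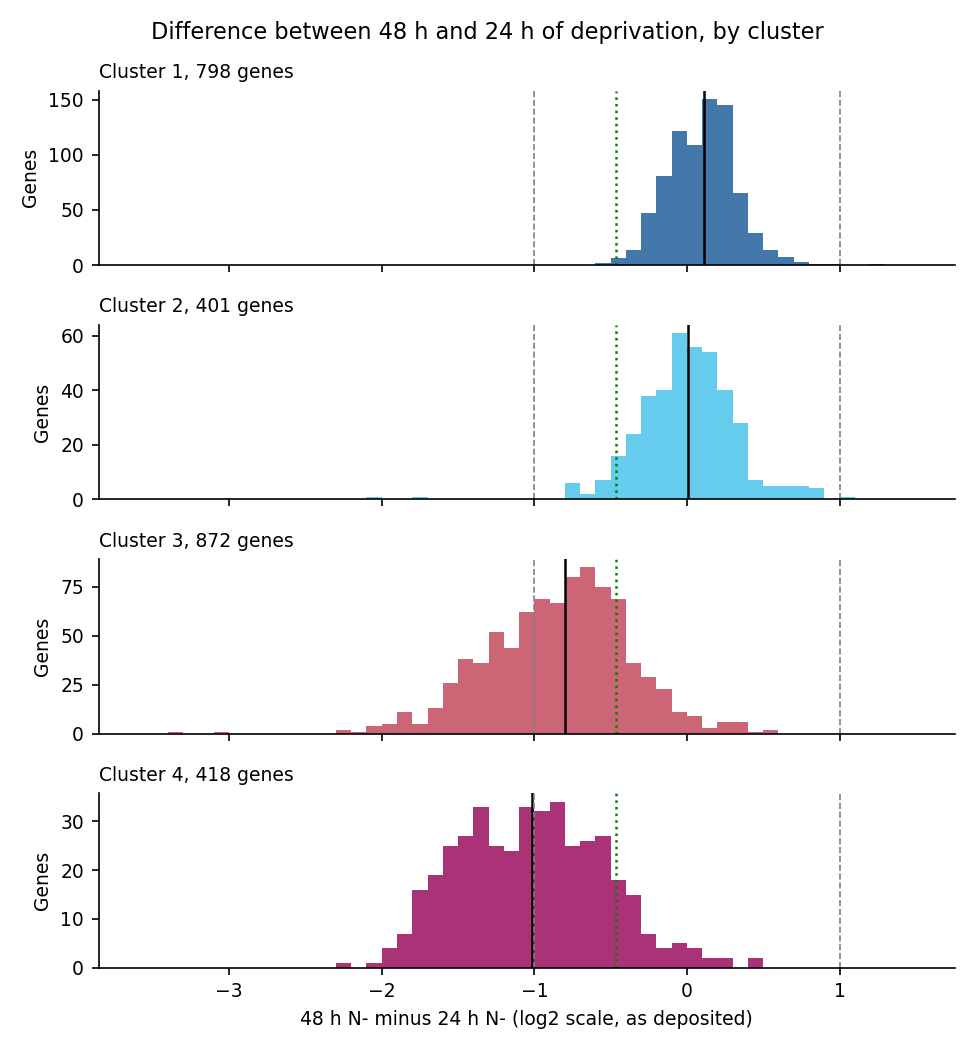
Histograms of 48 h N- minus 24 h N- on the log2 scale as deposited, 1 panel per cluster, with the number of genes per bin on the y axis. The solid line is the cluster median (0.11, 0.01, -0.80 and -1.02 for clusters 1 to 4), dashed lines mark 2-fold and the dotted line the shift of -0.46 in the column medians. Clusters 1 and 2 centre near 0, and most of clusters 3 and 4 lies to the left of 0.

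Within a cluster the lowering differed little with the level of a gene. Genes were split into 4 equal parts by their 24 h N- level. In cluster 3 the median differences of the 4 parts, in order of level, were -0.79, -0.79, -0.85 and -0.81, and in cluster 4 they were -1.05, -0.92, -1.04 and -1.04. Over all clusters 27.4% of the genes in the lowest part and 14.5% in the highest were lower, and the make-up of the parts differed with it: clusters 3 and 4 held 67.1% of the lowest part and 35.7% of the highest. The SD over genes in cluster 3 was 0.51 in the lowest part and 0.46 in the highest. The lower genes ran from 1.91 to 16.76 at 48 h N- and from 3.20 to 17.98 at 24 h N-, nearly the full range of the tables.

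The lower genes included the gene with the highest 24 h N- value among the 2489 selected genes. A pair of evidence-based cluster 3 models on contig 4991, singled out here after their values had been seen, held ranks 1 and 3 among the 2489 genes at 24 h N-. The first stood at 16.76 at 48 h N- against 17.98 at 24 h N-, and the second at 15.16 against 16.55. Over all 10 time points the profiles of this pair had a Pearson r of 0.996. Raised from the log2 scale and summed over genes, the 517 lower genes made up 9.74% of the summed value at 48 h N- and 20.7% at 24 h N-. A large part of both shares came from this pair. The first model alone made up 2.33% at 48 h N- and 4.6% at 24 h N-, and the second 0.773% and 1.7%. Such shares do not depend on how columns were scaled, although they assume that the values are plain logarithms, are led by the most abundant genes and are not corrected for gene length.

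By cluster, these shares were 18.3% at 48 h N- against 29.5% at 24 h N- for cluster 3, and 4.80% against 8.31% for cluster 4. Cluster 1 made up 54.3% at 48 h N- against 43.6% at 24 h N-, and cluster 2 made up 22.6% against 18.6%. Unlike the shares, the sums themselves depend on the scaling. As deposited, the sums of clusters 1 to 4 at 48 h N- were 1.05, 1.03, 0.524 and 0.488 times those at 24 h N-, and on centred columns 1.45, 1.42, 0.723 and 0.673 times. In the wider course the share of cluster 3 was highest at 12 h N- (37.3%) and lowest at 72 h N- (11.1%).

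**Figure D2:**
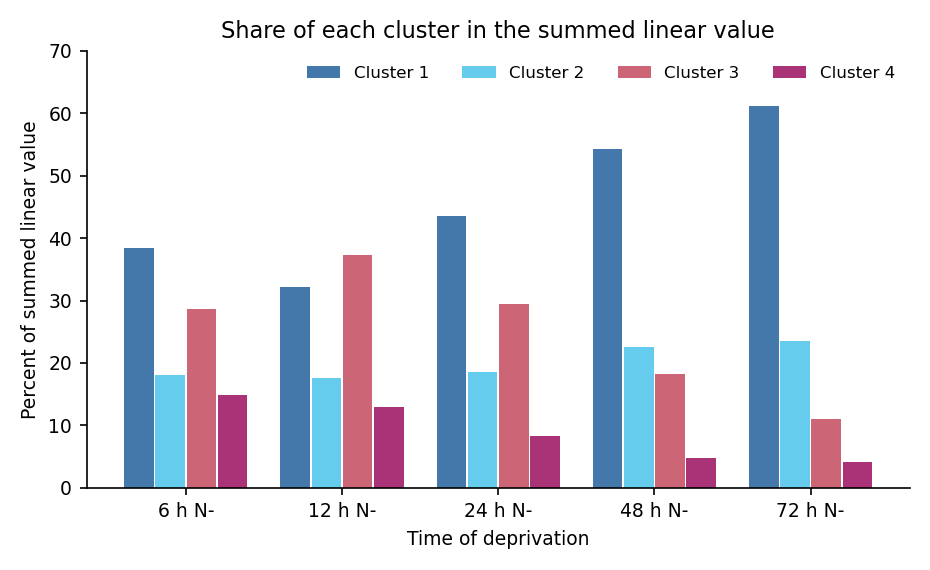
Percent of the summed linear value of all 2489 genes that each cluster made up at the 5 times of deprivation, with 1 bar per cluster. Between 24 h and 48 h N- the bar of cluster 1 is taller at 48 h (54.3%) than at 24 h (43.6%), and the bars of clusters 3 and 4 are shorter.

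The genes with the largest differences are described next, by cluster. Of the 6 lower ones among them 4 were highest in deprivation at 24 h N-. Genes picked for a large drop from 24 h N- tend to be high at that time, so this follows partly from the choice. Of these 4, 2 are the contig 6523 pair and 2 are the only lower genes of cluster 2. In cluster 3 the largest differences were those of the pair on contig 6523. The model augustus_masked-nanno_6523-abinit-gene-0.1 had levels of 9.59 (6 h), 10.03 (12 h), 10.98 (24 h), 7.67 (48 h) and 6.70 (72 h) in deprivation. It was the gene with the largest difference of all, -3.31 or 9.94-fold lower at the later time, and until 24 h N- its level had climbed. Its neighbour augustus_masked-nanno_6523-abinit-gene-0.0 had levels of 8.58, 9.13, 9.80, 6.76 and 5.77 at the same times, with a difference of -3.04 or 8.22-fold. Over all 10 time points the profiles of the pair were almost parallel (Pearson r 0.998), and the tables do not show if the models belong to a single transcript.

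In cluster 4 the largest difference was that of maker-nanno_4045-snap-gene-0.12, with levels of 9.89, 10.28, 9.14, 6.89 and 6.21 over the 5 times of deprivation and a difference of -2.25, 4.77-fold lower. Next came augustus_masked-nanno_5438-abinit-gene-0.1, with 11.67, 12.03, 11.20, 9.11 and 7.90 and a difference of -2.09. Unlike the contig 6523 pair, both were already below their 12 h N- level at 24 h N-.

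Cluster 2 held the only lower genes outside clusters 3 and 4. The model snap_masked-nanno_325-abinit-gene-0.4 had levels of 6.83, 8.88, 9.13, 7.07 and 6.58 in deprivation, with a difference of -2.06 or 4.18-fold. The model snap_masked-nanno_503-abinit-gene-0.3 had 5.00, 7.23, 8.45, 6.73 and 5.87, with a difference of -1.72 or 3.29-fold. Both were above their 6 h N- level at 12 h and 24 h N-, and 24 h N- was their highest value of all 10 time points.

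The only genes that were higher by more than 2-fold were weakly expressed. The cluster 1 model snap_masked-nanno_537-abinit-gene-0.1 had levels of 3.50, 4.28, 5.15, 6.43 and 8.35 in deprivation, with a difference of 1.27 or 2.42-fold. The cluster 2 model augustus_masked-nanno_904-abinit-gene-0.1 had 4.51, 4.50, 5.43, 6.48 and 7.18, with a difference of 1.05 or 2.07-fold. Each was higher at every later time from 12 h N- on, so the step was one part of a longer climb.

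**Figure D3:**
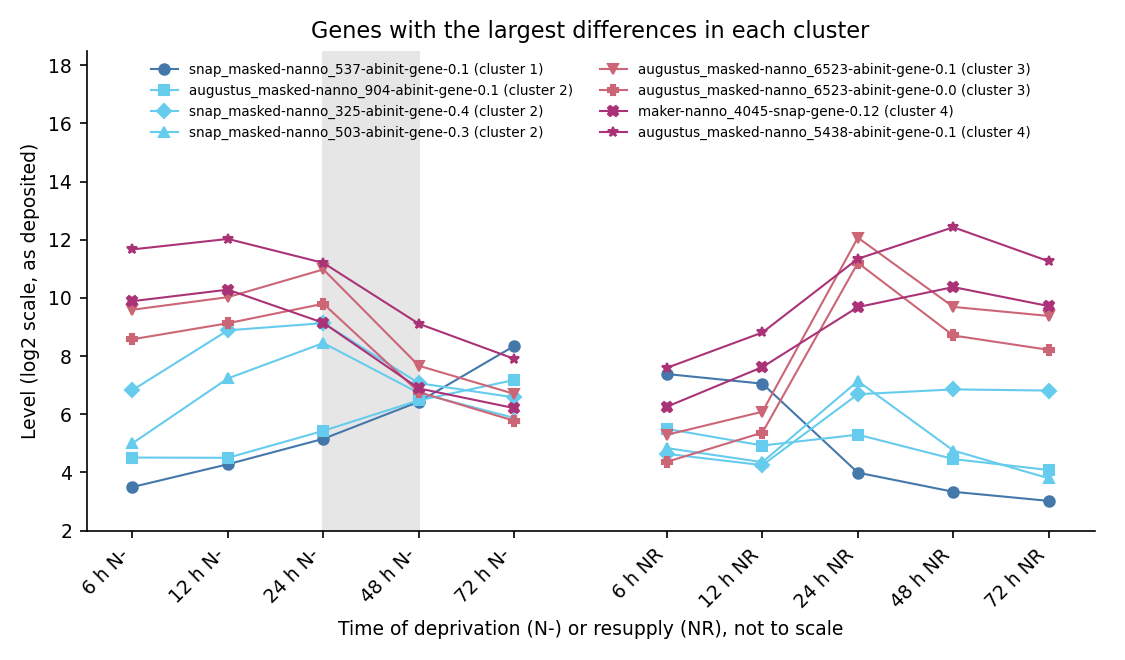
Level on the log2 scale as deposited (y axis) of the 8 genes named for the largest differences, at the 5 times of deprivation and the 5 after resupply (x axis, not to scale). The shaded band is the step between 24 h and 48 h N-, where 6 genes drop, the contig 6523 pair most steeply (-3.31 and -3.04), and 2 climb.

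For most of the lower genes the decline had begun before 24 h. Of the 517, 454 (87.8%) had their highest value in deprivation at 12 h N-, 45 at 6 h N- and 18 (3.48%) at 24 h N-. The 12 h N- maximum was common in these clusters generally. In cluster 3 it was found in 94.0% of the 300 lower genes and in 82.2% of the other 572, and in cluster 4 in 172 of the 215 lower genes and in 142 of the other 203. In 42 of the cluster 4 genes the highest value was at 6 h N-, against 3 of the cluster 3 genes. The lowest value in deprivation was at 72 h N- for 507 of the 517. The medians over all genes of clusters 3 and 4 were also lowest in deprivation at 72 h N-, at 7.44 and 7.27. For the other genes of these clusters, neither this minimum nor the 6 h N- maximum was counted. Genes chosen for a 48 h N- value below that of 24 h N- cannot have a maximum at 48 h N- or a minimum at 24 h N-. The choice favours a high 24 h N- value and a low 48 h N- value, so these counts describe the genes and test nothing.

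The 18 genes that were highest at 24 h N- lay on 16 contigs, 15 of them in cluster 3, 2 in cluster 2 and 1 in cluster 4. Their median level ran 9.35, 9.32, 9.82, 7.54 and 6.75 over the 5 times of deprivation, and their median difference was -1.53, with 4 of 18 past 4-fold. The 454 genes highest at 12 h N- had medians of 9.35, 9.91, 9.04, 7.67 and 6.86 and a median difference of -1.31, with 8 past 4-fold. A maximum at 24 h N- itself favours a larger drop from that time. Of the 4 genes past 4-fold in the group highest at 24 h N-, 2 are the contig 6523 pair. The values of these groups are therefore described and not compared.

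The neighbouring steps share the 24 h or the 48 h column with this one, so their values are set side by side and not related to each other. At 24 h N- against 12 h N- 227 genes (9.12%) were lower and 48 (1.93%) higher. On centred columns these were 60 lower and 96 higher, the opposite balance. At 72 h N- against 48 h N- 247 (9.92%) were lower and 5 (0.201%) higher, and on centred columns 42 and 13. The step from 24 h to 48 h held the most genes past 2-fold of these 3 steps on either scale, but the step before it lasted only 12 h, against 24 h for this one. Per hour, the median of cluster 4 moved by -0.0651 between 12 h and 24 h, by -0.0424 between 24 h and 48 h and by -0.0148 between 48 h and 72 h. In cluster 3 the same steps had medians of -0.0486, -0.0334 and -0.0303 per hour. These rates are as deposited. On centred columns they were -0.0455, -0.0231 and -0.0011 in cluster 4 and -0.0289, -0.014 and -0.0166 in cluster 3.

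The clusters slowed differently. Cluster 4 had 215 genes lower by more than 2-fold between 24 h and 48 h and 27 between 48 h and 72 h, and its median step was -1.02 and then -0.36. Cluster 3 had 300 and then 216, with median steps of -0.80 and -0.73. On centred columns the median steps were -0.55 and -0.03 in cluster 4 and -0.34 and -0.40 in cluster 3, so in either scaling cluster 4 moved mostly before 48 h while cluster 3 went on at about the same pace. Cluster 1 had 28 genes higher between 12 h and 24 h, 1 between 24 h and 48 h and 4 between 48 h and 72 h as deposited, and 70, 19 and 8 on centred columns.

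**Figure D4:**
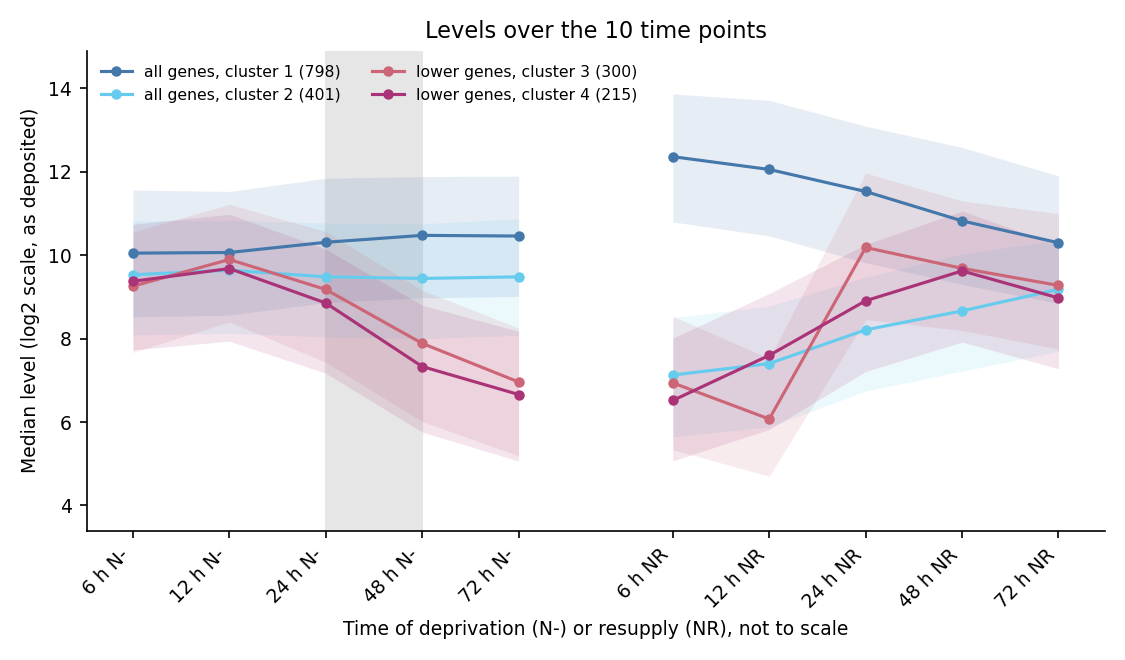
Median level on the log2 scale as deposited (y axis) over the 10 time points (x axis, not to scale) for all genes of clusters 1 and 2 and for the lower genes of clusters 3 and 4, with shading for the quartiles over genes. In the grey band between 24 h and 48 h N- the medians of the lower genes drop (cluster 3, 7.89 at 48 h and 9.18 at 24 h, cluster 4, 7.33 at 48 h and 8.85 at 24 h), because they were picked for it, while clusters 1 and 2 stay level.

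After resupply the lower genes regained their earlier levels by different routes. The 300 genes of cluster 3 had median levels of 6.94 (6 h), 6.07 (12 h), 10.18 (24 h), 9.68 (48 h) and 9.27 (72 h) after resupply. The 215 genes of cluster 4 had 6.52, 7.60, 8.91, 9.62 and 8.97. At 24 h NR both medians were at or above those of 24 h N-, 10.18 against 9.18 in cluster 3 and 8.91 against 8.85 in cluster 4. All 872 genes of cluster 3 took a similar course, with medians of 7.34, 6.48, 10.27, 9.42 and 9.43 after resupply. For all 418 genes of cluster 4 the medians were 6.77, 7.63, 8.82, 9.38 and 8.99, so the routes are those of the clusters. Across the 10 time points the lowest value fell at 12 h NR in 258 of the 300 lower cluster 3 genes. Among the lower genes of cluster 4 it fell at 6 h NR in 104 and at 72 h N- in 98 of 215. The other genes of these clusters were not counted in this way.

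The same hours could be set beside each other in both conditions, since 48 h NR and 24 h NR use other columns. Over all genes 497 (20.0%) had a lower level at 48 h NR and 200 (8.04%) a higher one, relative to 24 h NR. On centred columns the balance turned over, with 278 lower and 378 higher. As deposited, 371 of the lower genes after resupply were in cluster 3, 121 in cluster 1, 5 in cluster 2 and 0 in cluster 4, and on centred columns the counts were 240, 35, 3 and 0. Lower by more than 2-fold in both conditions were 55 genes as deposited and 14 on centred columns. The clusters were formed from these columns too, so what follows describes the genes.

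Cluster 4 took opposite directions. Its median step was -1.02 from 24 h to 48 h in deprivation and 0.71 from 24 h to 48 h after resupply. Of its 215 genes that were lower in deprivation 56 (26.0%) were higher by more than 2-fold after resupply, which is 51.9% of the 108 that were higher there, and 0 were lower. In the rest of the cluster 52 of 203 genes (25.6%) were higher after resupply, so the lower genes were not set apart in this. Taken gene by gene, the step in deprivation minus that after resupply had a median of -1.77, and it was below -1 for 356 of 418 genes and above 1 for 0.

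Cluster 3 went down in both conditions, with median steps of -0.80 in deprivation and -0.87 after resupply. The genes past the 2-fold limit were largely different ones, although most genes of the cluster moved down in both. After resupply the 300 lower genes had a median step of -0.53 (quartiles -0.90 and -0.27). In deprivation the other 572 had a median step of -0.62. Lower by more than 2-fold in both were 54 genes, which is 18.0% of the 300 lower in deprivation and 14.6% of the 371 lower after resupply. Over the whole cluster 34.4% were lower in deprivation and 42.5% after resupply. Among the 572 genes of the cluster that were not lower in deprivation, 317 (55.4%) were lower after resupply. These values are as deposited. On centred columns 85 genes of the cluster were lower in deprivation, 240 after resupply and 13 in both. The centred median steps were -0.34 in deprivation and -0.58 after resupply. Across the 872 genes the steps had a Pearson correlation of -0.197 and a Spearman correlation of -0.297, where all points share the same 4 columns.

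The relation within cluster 3 was not even over sizes. Of the 231 genes with a deprivation step between -1.5 and -1, 16.9% were lower after resupply, and of the 60 between -2 and -1.5, 13.3% were. Of the 9 beyond -2, 7 were lower (77.8%), with a median of -1.73. These 9 genes lie on 7 contigs, 2 of them on contig 6523 and 2 on contig 4402, and most were weakly expressed, with a median level of 4.07 at 48 h N- and 6.36 at 24 h N-. Their median was 5.77 at 48 h NR and 7.39 at 24 h NR. The contig 6523 pair had steps of -3.31 and -3.04 in deprivation and of -2.38 and -2.50 after resupply. The other 2 of the 9 had steps of -0.71 and 0.23 after resupply.

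**Figure D5:**
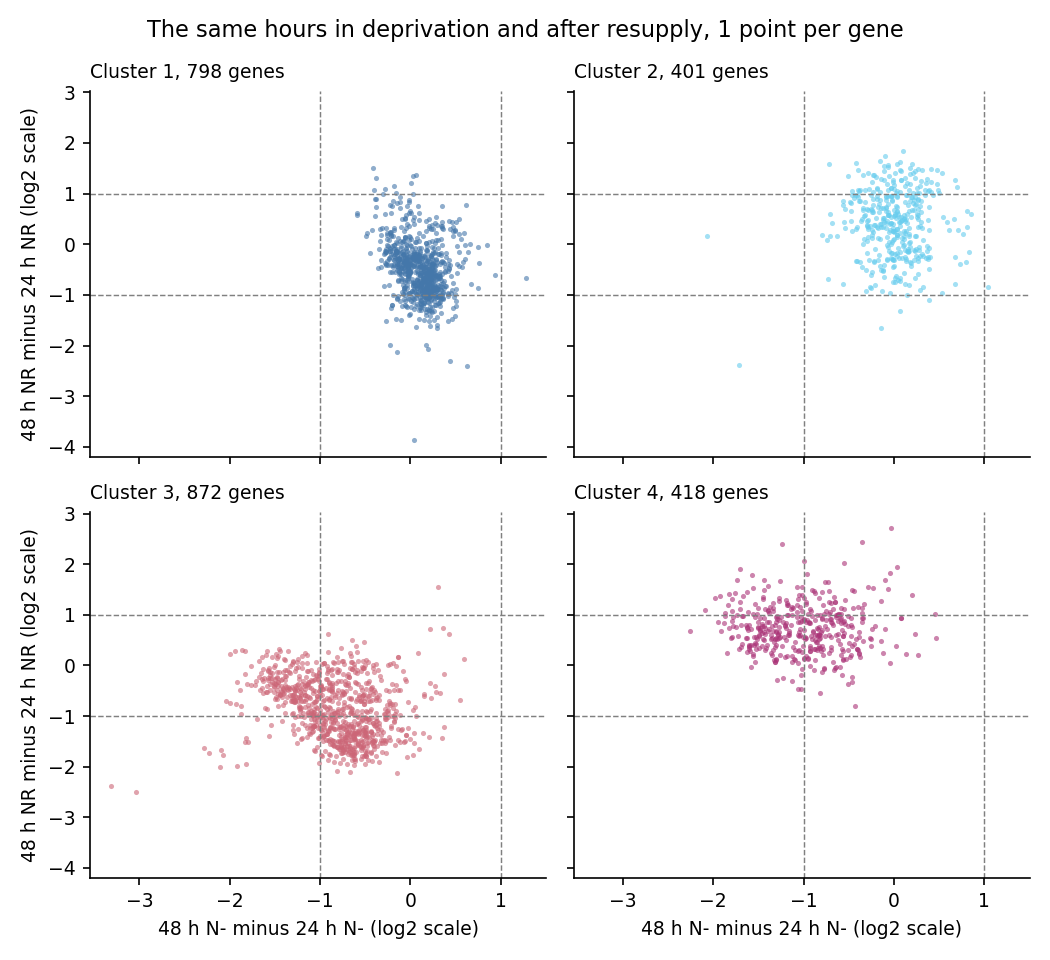
Each point is a gene, with 48 h N- minus 24 h N- on the x axis and 48 h NR minus 24 h NR on the y axis, both on the log2 scale as deposited, in 1 panel per cluster. Dashed lines mark 2-fold. Cluster 4 lies mostly left of 0 and above 0. Cluster 3 spreads from genes low on the x axis with y near -0.5 to genes low on the y axis with x near -0.6. A few of its points lie apart at the lower left.

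Genes that share a contig were more alike in this step than genes in general. The identifiers place the 2489 genes on 1215 contigs, of which 483 carry more than 1. The median gap between the differences of 2 genes was 0.48 over 3879 pairs on the same contig and 0.60 over all pairs. Part of this goes with the clusters, as 33.6% of same-contig pairs and 27.9% of all pairs were in the same cluster, but within a cluster the gaps were 0.24 and 0.31. The pairs are not independent, and the difference was not tested.

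The 517 lower genes lay on 401 contigs, 81 of which had more than 1. On 24 of the 483 contigs with 2 or more genes in the tables every one was lower, 54 genes in all. Over all genes 20.8% were lower, and how many such contigs this share alone would give was not computed. Of the 24, contig 4402 had 4 lower genes, with differences from -2.11 to -1.80, and contig 1778 had 3, from -1.67 to -1.58. Contig 564, with the most genes in the tables (23), had 5 lower genes, which is close to the share over all genes. In 48 same-contig pairs of lower genes the profiles were correlated above 0.99, and if these are separate transcripts cannot be told. With 1 gene kept of each such set, 476 of the 517 lower genes were left.

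The kind of gene model differed between the clusters. Ab initio predictions were lower in 368 of 1623 cases (22.7%) and evidence-based models in 149 of 866 (17.2%). Clusters 3 and 4 held 56.9% of the ab initio predictions and 42.3% of the evidence-based models. Within cluster 3 the shares of lower genes were 34.7% for ab initio and 33.6% for evidence-based models, and within cluster 4 they were 50.3% and 53.9%. By gene finder, cluster 3 ranged only from 32.1% to 35.0%. In cluster 4 the models of snap had 54.2% (ab initio) and 60.4% (evidence-based, 29 of 48), and those of augustus had 46.0% and 50.0%.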

How the data were processed

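RNA was profiled in cultures of N. oceanica CCMP1779. Per the labels' protocols, Trimmomatic 0.32 trimmed the reads, STAR 2.3.0e placed those with a single match in the strain's own assembly, and HTSeq 0.6.1 counted them. Reads of near-identical genes are lost this way. Per the labels' protocols, genes were selected with DESeq2 for condition and its interaction with time and clustered by k-means in MeV 4.8.1, and 2 biological replicates were harvested per time point.

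The deposited values are on a log2 scale, as inferred from their range (1.46 to 19.46). How libraries were scaled, logged and joined is not given in the sources used here. The 0 h group was not analysed here.

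Differences, medians and counts were computed with Python 3.11.15, numpy 2.4.6 and pandas 2.3.3, and the counting was tested on simulated data. With 1 value per group no test was possible. For each cluster, up to 2 genes with the largest difference in each direction, past 2-fold, are named. The comparison, its groups of genes and its limits were chosen with earlier results of these data known, and the splits by size of step and by time of highest value after seeing the values. Alternatives were 4 ways of centring, a filter on low levels and a limit of 1.5-fold.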

Additional observations from a re-analysis of the deposited data

Results flagged for a closer look

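The step from 24 h to 48 h went in opposite directions in deprivation and after resupply for 56 genes, all of cluster 4. They were more than 2-fold lower at 48 h N-, relative to 24 h N-, and more than 2-fold higher at 48 h NR, relative to 24 h NR. The 56 are 26.0% of the lower genes of cluster 4, and 25.6% of the other genes of the cluster were also higher after resupply, so the count is what the share over the cluster (25.8%) gives. With every column centred on its median there were 46 such genes, again all of cluster 4, out of 81 lower genes, in a cluster where 209 of 418 were higher after resupply. The reverse was seen in 0 genes, and in 1 after centring. Only 2 of the 2489 genes were higher in deprivation as deposited, and 38 after centring, so few genes could show the reverse. The difference between the conditions was not tested, and the genes were selected and clustered by the authors on these profiles.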

How the results depend on the processing

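The counts depend on the scale and the limit. Each centring takes 1 constant off every gene, so it cannot change how the clusters differ, and the clusters were formed on these columns. Under each alternative, clusters 3 and 4 had more lower than higher genes and cluster 1 had no fewer higher than lower genes. With the filter on low levels, cluster 1 had 0 of each. Cluster 2 had 1 higher and 2 lower genes as deposited, and 17 and 2 on column medians. Centred on the column medians, 38 genes were higher (19, 17 and 2 in clusters 1, 2 and 3) and 168 lower (85 in cluster 3, 81 in cluster 4). Centred on the mean of the 4 cluster medians, 33 were higher (16, 16 and 1) and 190 lower (95 and 93). Centred on the upper quartiles, 9 were higher (3 and 6 in clusters 1 and 2) and 326 lower (172 in cluster 3). Centred on the median of the gene differences, an alternative chosen after seeing the data, 16 were higher (6 and 10) and 262 lower (134 and 126). The median difference over all genes, -0.31 as deposited, turned to 0.15 with column medians, to 0.12 with cluster medians and, by construction, to 0.00 with the median of the gene differences. Without the 623 genes lowest in mean level, which removes both higher genes and the 2 lower genes of cluster 2, 0 were higher (0 in clusters 1 and 2) and 326 lower (0, 196 and 130 in clusters 2, 3 and 4). With a limit of 1.5-fold, 32 were higher (15, 16 and 1 in clusters 1, 2 and 3) and 963 lower (2, 10, 613 and 338 in clusters 1 to 4). The 8 named genes kept their direction and stayed past 2-fold under all 4 centrings. No paired analysis was possible because the tables hold 1 pooled value per time point, and for the same reason no replicate could be left out. Library depth is unknown here, so how precise any value is cannot be given.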
